A study of Mus musculus with 20 samples.

Results

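Matrix metalloproteases (MMPs), ADAMTS proteases and tissue inhibitors of metalloproteases (TIMPs) were followed in 3T3-L1 adipocytes, fat cells made in culture from a mouse preadipocyte line. The genes were taken by symbol: protein-coding rows starting with Mmp and a digit, with Adamts, or with Timp and a digit. This gave 50 of the 48440 genes in the table, namely 22 MMPs, 19 ADAMTS proteases, 5 ADAMTS-like genes and 4 TIMPs. RNA sequencing covered 20 libraries in 8 groups, and each manipulation of Foxk1 or Foxk2, paralogous forkhead transcription factors, was compared with its own control. Cells carrying an empty vector served as controls for cells labelled as constituent overexpression of FOXK1 (3 libraries each) and of FOXK2 (2 each). Cells carrying a scrambled shRNA served as controls for cells with a Foxk1 shRNA (3 each) or a Foxk2 shRNA (2 each). All groups were the 3T3-L1 line, with the strain given as Swiss mouse, and had been taken through the same differentiation with troglitazone (10 µM), dexamethasone (1 µM), insulin (5 µg/ml) and isobutyl methylxanthine (0.5 mM). Insulin was the only addition from day 4 on, and growth medium was used from day 6 on. The labels give neither the promoter of the overexpression constructs, nor the stage at which constructs were introduced, nor whether lines were clones or pools. They do not say that replicates were separate cultures, so p-values measure only the spread between these libraries, which may be technical.

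MMPs are zinc-dependent endopeptidases that are made as inactive proenzymes and cut collagens, gelatins and other matrix proteins. ADAMTS proteases are secreted relatives that cut proteoglycans such as versican and aggrecan or trim procollagen, whereas ADAMTS-like proteins share their ancillary domains without the protease. TIMPs bind the active site of these enzymes. In fat tissue, this system is known for the remodelling of pericellular collagen as preadipocytes round up and fill with lipid, and the membrane-bound Mmp14 is the member best known for it.

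Foxk1 RNA was not raised where the label says Foxk1 overexpression. Its level was 6.10 ± 0.0553 RPKM against 7.55 ± 0.468 in their controls (SD, n = 3 and 3), so directions drawn from these libraries are those of the label. RPKM are reads per kilobase of transcript, scaled to the assigned reads of the library. Foxk1 fell in Foxk1 knockdown, and Foxk2 rose in Foxk2 overexpression and fell in Foxk2 knockdown. In the libraries labelled Foxk1 overexpression, Foxk2 was higher, at 13.9 ± 0.334 against 11.3 ± 0.294 RPKM. Foxk2 was lower in Foxk1 knockdown (9.57 ± 0.668 against 10.99 ± 0.237 RPKM, n = 3 and 3). Foxk1 was lower in Foxk2 overexpression (7.14 ± 0.227 against 11.6 ± 0.0573 RPKM, n = 2 and 2) and higher in Foxk2 knockdown (12.7 ± 0.201 against 10.2 ± 0.648 RPKM). The Foxk1 libraries held about 16740000 to 20773000 assigned reads and the Foxk2 libraries about 31378000 to 36157000, and the first principal component (79.5% of the variance) separated these sets, controls included. Any difference between a Foxk1 and a Foxk2 effect therefore cannot be told apart from a difference between the sets. The cell type label was checked on marker genes: all 8 adipocyte markers passed the filter on low values and summed to between 4165 and 9187 RPKM per library. The 4 endothelial, 4 skeletal muscle and 3 epithelial markers stayed under 0.5 RPKM in every library, as did Ptprc and Adgre1 from the list of macrophage markers. The other 4 macrophage markers (Cd14, Cd68, Csf1r and Lyz2) passed the filter, with group means of at most 4.78 RPKM. In bulk RNA, fewer cells of a type and less RNA per cell cannot be told apart.

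A mean of 0.5 RPKM over the 20 libraries was reached by 27 of the 50 genes. These were 10 MMPs (Mmp2, Mmp14, Mmp19, Mmp11, Mmp28, Mmp23, Mmp24, Mmp3, Mmp9 and Mmp13, in order of level), 11 ADAMTS proteases (Adamts1, 12, 5, 2, 10, 15, 9, 14, 7, 4 and 6), Adamtsl4 and Adamtsl5, and all 4 TIMPs. Mmp2 (gelatinase A) had the highest mean level per length, 120.3 RPKM, followed by Adamts1 (94.5), Timp2 (82.1) and Mmp14 (64.5). Mmp2 made up 17.2 to 55.8% of the summed RPKM of the MMP genes in a library, and Timp2 made up 63.7 to 93.4% of that of the TIMP genes. Most of the signal of the family thus came from few genes. Some of the 27 reached this mean only through part of the libraries: Mmp24 and Timp3 did so through the Foxk1 set. Mmp9 had group means over 0.5 RPKM only in Foxk1 knockdown (3.35) and its controls (1.84). Mmp13 was under 0.5 RPKM except with either knockdown and in the Foxk1 knockdown controls. Such genes enter the counts that follow. Mmp13 reached the mean through knockdown libraries in which it was high, so its place among the genes higher in knockdown was in part set by this rule. The mean of Mmp9 also rested in part on the Foxk1 knockdown libraries, in which it was highest. Its place among the genes higher in Foxk1 knockdown carries the same limit.

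The other 23 genes had means under 0.5 RPKM. Mmp15 (MT2-MMP) and Mmp27 had means of 0.463 and 0.327 RPKM and passed the filter for testing, 0.5 RPKM in at least 2 libraries, only through the libraries in which they were highest. Mmp15 had 0.622 ± 0.0287 RPKM in the controls of Foxk2 overexpression and 0.139 ± 0.0101 with it (SD, n = 2 and 2), and Mmp27 reached 0.872 ± 0.0774 RPKM (SD, n = 3) in Foxk1 knockdown. None of the other 21 exceeded 0.411 RPKM in any library. They were Mmp1b, 7, 8, 10, 12, 16, 17, 20, 21 and 25, Adamts3, 8, 13, 16, 17, 18, 19 and 20, and Adamtsl1, 2 and 3, with Mmp7 and Adamts19 at 0 in every library. In mm10, 9 of the MMP genes, from Mmp13 to Mmp7, lie one after another on chromosome 9 with gaps of at most 61.0 kb. Of this cluster only Mmp3 and Mmp13 reached the mean of 0.5 RPKM. Adamts1 and Adamts5 are neighbours on chromosome 16, 53.1 kb apart.

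Taken singly, each overexpression comparison had most of these genes lower, and each knockdown had most of them higher. Each comparison was tested in limma on log2(RPKM + 0.5) with adjustment over all 15981 genes tested, and a gene was called at an adjusted p under 0.05. On this scale, the fold changes of genes near the pseudocount are understated. In the libraries labelled Foxk1 overexpression, 24 of the 27 genes were lower and 2 higher than in their controls, against a background of 23.8% lower and 24.1% higher among all genes tested. Their median log2 fold change was -0.69. In Foxk1 knockdown, 19 were higher and 4 lower (background 20.4% higher and 15.5% lower), with a median of 0.59. In Foxk2 overexpression, 17 were lower and 2 higher (background 22.0% lower and 23.0% higher), with a median of -0.56. In Foxk2 knockdown, 18 were higher and 1 lower (background 18.0% higher and 15.7% lower), with a median of 0.74. The median of all genes tested lay between 0 and 0.017 in the 4 comparisons. For 14 of the 27, all 4 calls followed the same scheme, lower in both overexpressions and higher in both knockdowns, which held for 6.98% of all genes tested. The converse scheme was met by 723 of the 15981 genes tested and by none of the 27. Beside so small a share, a count of none among 27 genes says little. The 14 were 5 of 10 MMPs (Mmp2, Mmp14, Mmp23, Mmp3 and Mmp13), 6 of 11 ADAMTS proteases (Adamts1, 12, 5, 2, 7 and 4), both ADAMTS-like genes and 1 of 4 TIMPs, Timp2. Among them, Adamtsl5 and Mmp13 each rest on a call that was lost in some alternative runs, as given below.

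**Figure D1:**
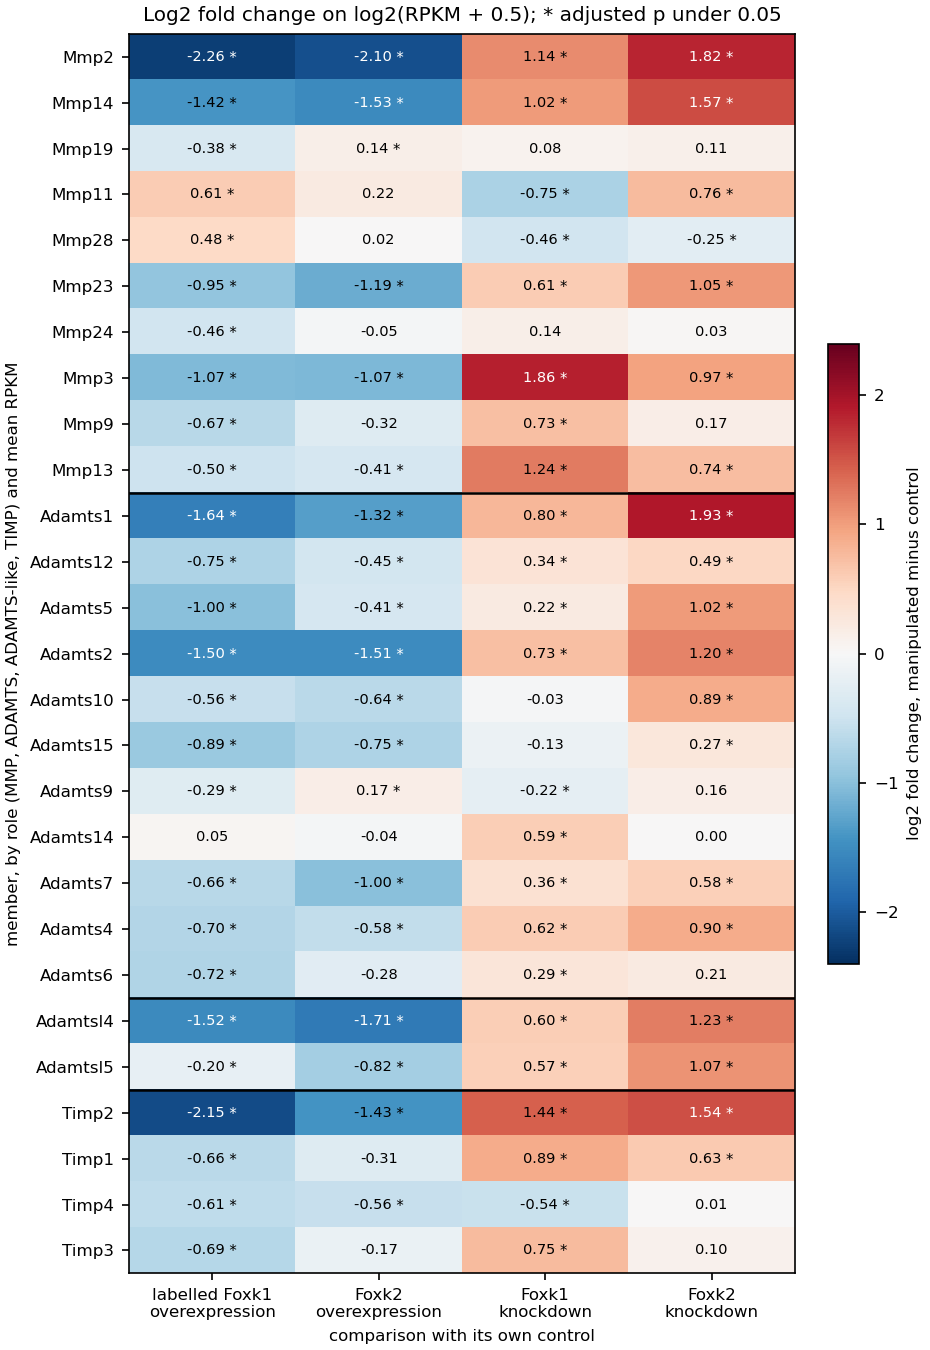
Heatmap of the log2 fold change on log2(RPKM + 0.5) of the 27 genes whose mean reached 0.5 RPKM (rows, ordered by role and mean level) in the 4 comparisons (columns), with an asterisk where the adjusted p was under 0.05. The left columns are mostly blue (lower) and the right columns mostly red (higher), from -2.26 for Mmp2 to 1.93 for Adamts1, with Mmp11, Mmp28, Mmp19, Adamts9 and Timp4 departing from this.

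The 3 components of the surface activation complex of proMMP2 moved together. Mmp14 is the membrane-type protease that activates Mmp2, and Timp2, besides inhibiting MMPs, bridges proMMP2 to Mmp14. Mmp2 (chromosome 8, 92827291 to 92853420, mm10) measured 112, 99.4 and 113 RPKM in the 3 controls of labelled Foxk1 overexpression and 21.7, 23.4 and 21.6 in the libraries so labelled. In Foxk1 knockdown it measured 135, 131 and 122 RPKM in the controls and 302, 279 and 276 with the shRNA. The libraries of each group lay close together and far from those of the group compared, with no overlap. Mmp2 log2 fold changes were -2.26 ± 0.053 (SE, adjusted p = 5.36e-14) and 1.138 ± 0.053 (SE, adjusted p = 5.66e-10). For Foxk2, Mmp2 measured 101 and 104 RPKM in controls and 23.4 and 23.4 with overexpression, and 58.3 and 55.7 in controls and 206 and 200.2 with knockdown. All Foxk2 overexpression libraries were lower and all knockdown libraries higher than their controls. The changes were -2.103 ± 0.065 (SE, adjusted p = 3.78e-12) and 1.82 ± 0.065 (SE, adjusted p = 5.27e-11).

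Mmp14 (chromosome 14, 54431612 to 54445364) measured 61.1, 50.1 and 62.96 RPKM in controls and 20.6, 22.4 and 21.05 in the libraries labelled Foxk1 overexpression, and 86.9, 78.8 and 75.1 in controls and 168, 153 and 168 with Foxk1 knockdown. For Foxk2, Mmp14 measured 42.8 and 42.7 RPKM in controls and 15.1 and 13.9 with overexpression, and 25.9 and 25.9 in controls and 77.4 and 78.3 with knockdown. Groups compared did not overlap in any of the 4 comparisons, and the highest libraries were those of Foxk1 knockdown. Mmp14 log2 fold changes were -1.42 ± 0.072 (SE, adjusted p = 3.31e-10) and 1.02 ± 0.072 (SE, adjusted p = 3.57e-08) for Foxk1, and -1.53 ± 0.089 (SE, adjusted p = 2.08e-09) and 1.57 ± 0.089 (SE, adjusted p = 4.69e-09) for Foxk2.

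Timp2 (chromosome 11, 118301069 to 118355740) followed the same order. It measured 94.3, 77.8 and 87.9 RPKM in controls and 20.1, 19.04 and 18.1 in the libraries labelled Foxk1 overexpression, and 67.1, 70.6 and 69.2 in controls and 193, 179 and 194 with Foxk1 knockdown. For Foxk2, Timp2 measured 74.4 and 74.3 RPKM in controls and 27.8 and 26.9 with overexpression, and 45.04 and 43.9 in controls and 127 and 133 with knockdown. Again no group overlapped the one it was compared with. Timp2 log2 fold changes were -2.15 ± 0.056 (SE, adjusted p = 2.39e-13) and 1.44 ± 0.056 (SE, adjusted p = 2.25e-10) for Foxk1, and -1.43 ± 0.069 (SE, adjusted p = 3.27e-10) and 1.54 ± 0.069 (SE, adjusted p = 5.83e-10) for Foxk2. The inhibitor therefore moved in the same direction as the protease it helps to activate, in every comparison.

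**Figure D2:**
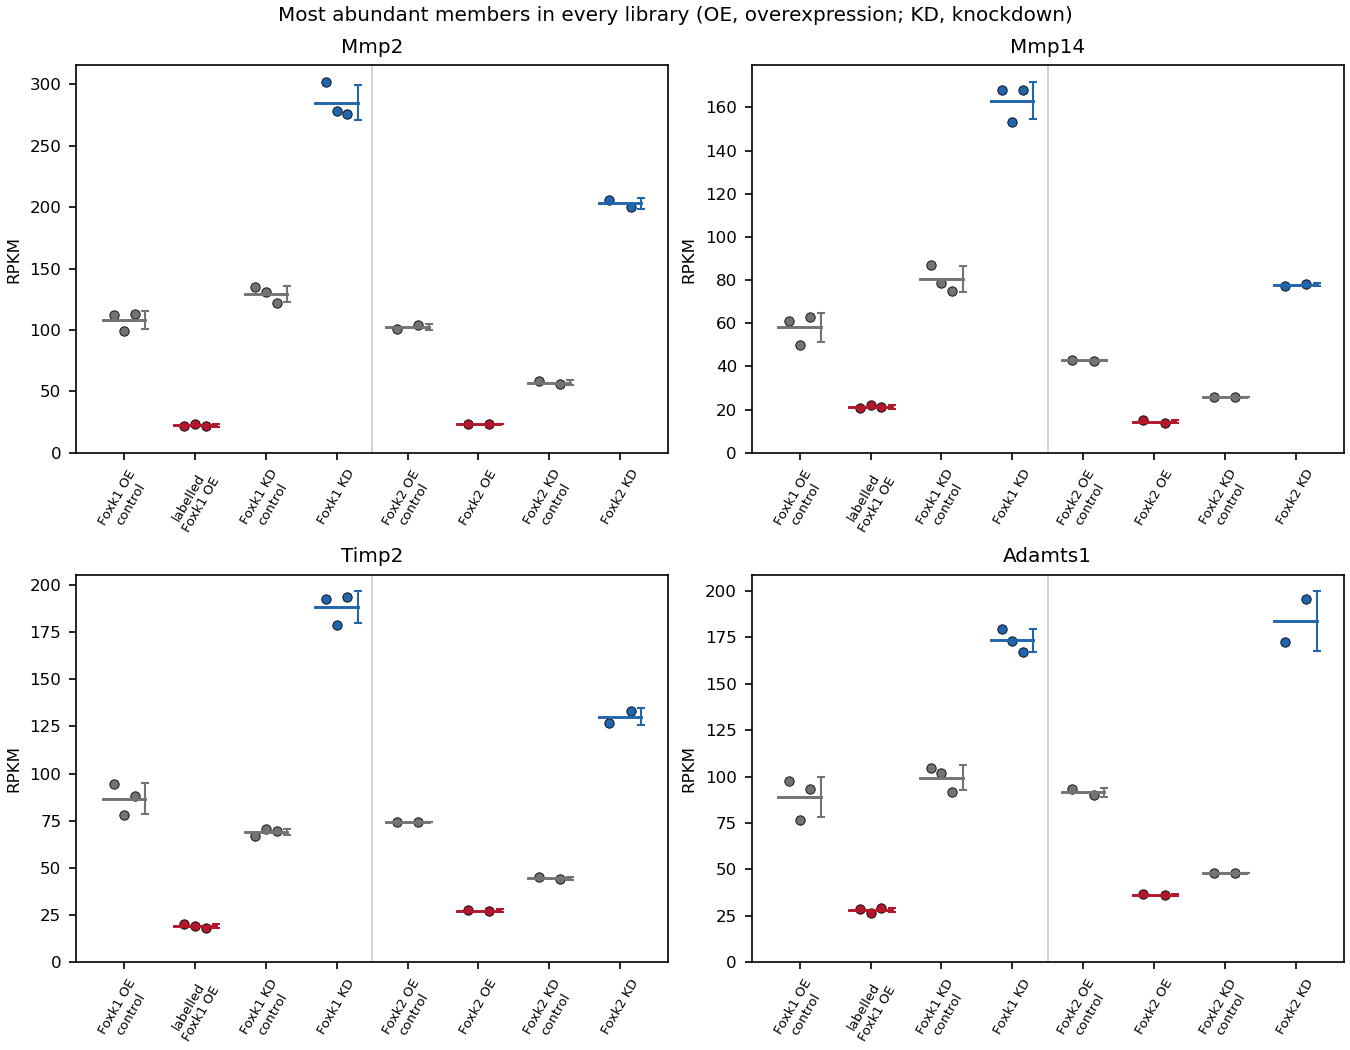
RPKM (vertical axis, from 0) of Mmp2, Mmp14, Timp2 and Adamts1 in each library, by group (horizontal axis; OE, overexpression; KD, knockdown). Points are libraries, lines are group means and bars are the SD, with controls in grey. Overexpression groups lie below and knockdown groups above their own controls in every panel, as for Mmp2 at 22.2 against 108 and 285 against 129 RPKM for Foxk1.

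Promoter windows of members that moved together are shown for comparison of their letters. RefSeq promoter entries (GRCm38.p6) matched 20 of the 29 tested genes, 10 of them among the 14 above, with 2 windows for Mmp23; Mmp2, Mmp9, Mmp19 and Adamts4, 5, 6, 7, 10 and 15 had no entry in the table used. Each window holds the 250 bases before the annotated start, read 5′ to 3′ on the gene's strand. Capitals mark matches to 4 motifs: the forkhead core GTAAACA, the AP-1 site TGAGTCA and the GC box GGGCGG, each on both strands, and the core of the TATA box, TATAAA, on the gene's strand. No match to one motif overlapped a match to another in the windows printed. Among 32851 promoters of the same length, 3.17% held the forkhead core, 4.46% the AP-1 site, 32.7% the GC box and 7.59% the TATA box core. The windows printed are those of Timp2 (chr11:118355412-118355661, minus strand), Mmp14 (chr14:54431348-54431597, plus strand) and Adamts1 (chr16:85803114-85803363, minus strand), the 3 most abundant members of the 14 with an entry. Mmp3 (chr9:7445572-7445821, plus strand) and Mmp13 (chr9:7272264-7272513, plus strand) are printed because, of the 20 genes, they were the ones with an AP-1 site.
Timp2: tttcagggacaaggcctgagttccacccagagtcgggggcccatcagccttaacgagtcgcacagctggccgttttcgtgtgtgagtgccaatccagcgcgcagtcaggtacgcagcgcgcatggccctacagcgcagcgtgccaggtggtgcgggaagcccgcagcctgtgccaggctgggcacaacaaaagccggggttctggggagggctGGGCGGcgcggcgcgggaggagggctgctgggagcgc
Mmp14: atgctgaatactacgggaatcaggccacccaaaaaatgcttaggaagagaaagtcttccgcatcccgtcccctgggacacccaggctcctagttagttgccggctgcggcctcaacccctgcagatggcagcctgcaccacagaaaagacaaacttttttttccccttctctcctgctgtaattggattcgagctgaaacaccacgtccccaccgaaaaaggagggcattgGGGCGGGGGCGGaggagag
Adamts1: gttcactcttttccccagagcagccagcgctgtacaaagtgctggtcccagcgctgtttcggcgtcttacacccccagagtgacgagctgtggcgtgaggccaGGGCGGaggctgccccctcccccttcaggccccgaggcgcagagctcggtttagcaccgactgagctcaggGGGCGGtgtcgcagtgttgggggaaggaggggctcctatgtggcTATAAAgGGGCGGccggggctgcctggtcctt
Mmp3: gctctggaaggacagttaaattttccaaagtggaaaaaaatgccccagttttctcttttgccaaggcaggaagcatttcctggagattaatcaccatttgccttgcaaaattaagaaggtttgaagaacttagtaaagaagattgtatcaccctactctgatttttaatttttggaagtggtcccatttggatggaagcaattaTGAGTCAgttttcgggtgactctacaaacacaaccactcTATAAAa
Mmp13: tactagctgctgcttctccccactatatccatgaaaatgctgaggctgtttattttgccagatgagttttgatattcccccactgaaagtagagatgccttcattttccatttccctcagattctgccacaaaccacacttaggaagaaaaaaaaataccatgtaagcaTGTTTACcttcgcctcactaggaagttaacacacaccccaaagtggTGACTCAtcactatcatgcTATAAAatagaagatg
The forkhead core was found in the window of 1 of the 20 genes, Mmp13, 81 bases before the start on the opposite strand. The AP-1 site lies 46 bases before the start in Mmp3 and 35 in Mmp13, each upstream of a TATA box core. The Mmp3 and Mmp13 windows are poor in G and C (37.6 and 40.4%), whereas those of Timp2, Mmp14 and Adamts1 hold 68.0, 55.2 and 65.6% and contain GC boxes. A GC box was present for 6 of the 10 genes following the common scheme and for 8 of the 10 others. A match is a description of the letters, and no binding was measured.

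Mmp3 (stromelysin 1) and Mmp13 (collagenase 3), both in the chromosome 9 cluster, were low in controls and higher with either knockdown. Mmp3 (chromosome 9, 7445822 to 7455975) measured 0.884, 1.28 and 1.254 RPKM in the controls of Foxk1 knockdown and 5.84, 5.58 and 4.85 with it, the highest levels of any group. It measured 0.505 and 0.468 RPKM in the controls of Foxk2 knockdown and 1.31 and 1.56 with it. Overexpression libraries were lower than controls, at 0.447, 0.195 and 0.203 against 1.33, 0.931 and 1.13 RPKM for labelled Foxk1 overexpression and 0.185 and 0.106 against 0.769 and 0.953 for Foxk2. Groups compared did not overlap. Mmp3 log2 fold changes were 1.86 ± 0.14 (SE, adjusted p = 4.76e-08) in Foxk1 knockdown, 0.97 ± 0.17 (SE, adjusted p = 0.000287) in Foxk2 knockdown, -1.07 ± 0.14 (SE, adjusted p = 9.11e-06) in labelled Foxk1 overexpression and -1.07 ± 0.17 (SE, adjusted p = 6.73e-05) in Foxk2 overexpression. The Mmp3 counts behind these values ran from 6 to 208 reads per library.

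Mmp13 (chromosome 9, 7272514 to 7283331) measured 0.774, 0.824 and 0.899 RPKM in the controls of Foxk1 knockdown and 2.87, 2.57 and 2.51 with it, or 1.24 ± 0.10 (SE, adjusted p = 1.48e-07) on the log2 scale. In Foxk2 knockdown it measured 0.727 and 0.682 against 0.197 and 0.247 RPKM, or 0.74 ± 0.12 (SE, adjusted p = 0.000237). Both knockdowns lay above their controls without overlap. With overexpression it was under 0.15 RPKM in all 5 libraries, from 2 to 13 reads each, against 0.199, 0.453 and 0.259 RPKM in the Foxk1 controls and 0.362 and 0.338 in the Foxk2 controls. The changes were -0.50 ± 0.10 (SE, adjusted p = 0.000745) in labelled Foxk1 overexpression and -0.41 ± 0.12 (SE, adjusted p = 0.0128) in Foxk2 overexpression. The latter lost its call without control replicate 1 (adjusted p = 0.0632) or overexpression replicate 2 (adjusted p = 0.0647).

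Mmp23, a membrane-anchored MMP, and Mmp9 (gelatinase B) differed in which comparisons they were called. Mmp23 (chromosome 4, 155650655 to 155653384) measured 5.88, 5.50 and 6.10 RPKM in controls and 3.16, 2.82 and 2.39 in the libraries labelled Foxk1 overexpression, and 11.1, 9.53 and 9.48 in controls and 16.2, 15.4 and 15.1 with Foxk1 knockdown. It measured 4.85 and 4.78 RPKM in controls and 1.85 and 1.80 with Foxk2 overexpression, and 3.39 and 3.53 in controls and 7.83 and 7.57 with Foxk2 knockdown. No groups compared overlapped. Mmp23 log2 fold changes were -0.95 ± 0.074 (SE, adjusted p = 4.14e-08) and 0.61 ± 0.074 (SE, adjusted p = 9.25e-06) for Foxk1, and -1.19 ± 0.090 (SE, adjusted p = 3.70e-08) and 1.05 ± 0.090 (SE, adjusted p = 3.12e-07) for Foxk2. Mmp9 was lower in labelled Foxk1 overexpression (0.102 ± 0.0437 against 0.460 ± 0.138 RPKM, SD, n = 3 and 3; adjusted p = 0.000965) and higher in Foxk1 knockdown (3.35 ± 0.473 against 1.84 ± 0.401; adjusted p = 0.000711). In the Foxk2 set Mmp9 stayed under 0.3 RPKM in all 8 libraries and was called in neither comparison. The Foxk2 overexpression value, -0.32 with a pseudocount of 0.5, became -0.85 and passed the test with a pseudocount of 0.1, and passed it also on recovered reads.

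Among ADAMTS proteases, 10 of 11 were lower in labelled Foxk1 overexpression and 8 in Foxk2 overexpression, and 8 were higher in each knockdown. Of all genes tested, 23.8% and 22.0% were lower in these overexpressions, and 20.4% and 18.0% were higher in Foxk1 and Foxk2 knockdown. Adamts1, a versican- and aggrecan-cleaving protease (chromosome 16, 85793827 to 85803113), measured 97.4, 76.8 and 93.1 RPKM in controls and 28.5, 26.7 and 29.1 in the libraries labelled Foxk1 overexpression, and 105, 102 and 91.6 in controls and 179.7, 173 and 167 with Foxk1 knockdown. For Foxk2, Adamts1 measured 93.2 and 89.9 RPKM in controls and 36.6 and 35.9 with overexpression, and 48.1 and 47.8 in controls and 173 and 196 with knockdown. Every manipulated library lay outside the range of its controls, and Foxk2 knockdown held the highest one. Adamts1 log2 fold changes were -1.64 ± 0.075 (SE, adjusted p = 9.69e-11) and 0.80 ± 0.075 (SE, adjusted p = 6.21e-07) for Foxk1, and -1.32 ± 0.091 (SE, adjusted p = 1.40e-08) and 1.93 ± 0.091 (SE, adjusted p = 9.43e-10) for Foxk2.

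Its chromosomal neighbour Adamts5, an aggrecanase (chromosome 16, 85856173 to 85901828), moved in the same directions with other sizes. It measured 17.4, 16.1 and 16.2 RPKM in controls and 8.32, 7.74 and 8.11 in the libraries labelled Foxk1 overexpression, and 22.3, 21.6 and 21.7 in controls and 26.1, 23.6 and 26.99 with Foxk1 knockdown. For Foxk2, Adamts5 measured 9.45 and 9.24 RPKM in controls and 7.03 and 6.83 with overexpression, and 6.06 and 6.29 in controls and 12.6 and 13.4 with knockdown. The groups compared did not overlap, although the gap in Foxk1 knockdown was small. Adamts5 log2 fold changes were -0.996 ± 0.047 (SE, adjusted p = 1.42e-10) and 0.22 ± 0.047 (SE, adjusted p = 0.00192) for Foxk1, and -0.41 ± 0.057 (SE, adjusted p = 2.85e-05) and 1.02 ± 0.057 (SE, adjusted p = 4.69e-09) for Foxk2.

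Adamts12, which cuts cartilage oligomeric matrix protein (chromosome 15, 11064790 to 11349231), followed the common scheme with changes of at most 0.75 on the log2 scale. It measured 21.4, 19.3 and 20.01 RPKM in controls and 11.96, 11.54 and 11.96 in the libraries labelled Foxk1 overexpression, and 21.7, 23.03 and 22.7 in controls and 27.8, 28.5 and 29.3 with Foxk1 knockdown. For Foxk2, Adamts12 measured 23.7 and 23.6 RPKM in controls and 17.4 and 17.01 with overexpression, and 21.2 and 21.05 in controls and 30.3 and 29.6 with knockdown. Replicates agreed closely and no groups compared overlapped. Adamts12 log2 fold changes were -0.75 ± 0.036 (SE, adjusted p = 1.56e-10) and 0.34 ± 0.036 (SE, adjusted p = 2.38e-06) for Foxk1, and -0.45 ± 0.044 (SE, adjusted p = 6.03e-07) and 0.49 ± 0.044 (SE, adjusted p = 3.99e-07) for Foxk2.

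The procollagen N-proteinases Adamts2 and Adamts14 differed in their calls. Adamts2 (chromosome 11, 50602084 to 50807573) measured 6.70, 6.67 and 7.40 RPKM in controls and 2.24, 2.09 and 2.03 in the libraries labelled Foxk1 overexpression, and 5.69, 5.37 and 4.98 in controls and 9.52, 9.04 and 9.02 with Foxk1 knockdown. For Foxk2, Adamts2 measured 7.10 and 7.13 RPKM in controls and 2.23 and 2.13 with overexpression, and 4.94 and 4.48 in controls and 11.45 and 11.4 with knockdown. No groups compared overlapped, and the overexpression libraries all lay under 2.3 RPKM. Adamts2 log2 fold changes were -1.502 ± 0.053 (SE, adjusted p = 6.55e-12) and 0.73 ± 0.053 (SE, adjusted p = 4.86e-08) for Foxk1, and -1.51 ± 0.065 (SE, adjusted p = 1.11e-10) and 1.198 ± 0.065 (SE, adjusted p = 3.86e-09) for Foxk2. Adamts14 was higher in Foxk1 knockdown (2.86 ± 0.163 against 1.74 ± 0.220 RPKM, SD, n = 3 and 3; adjusted p = 3.58e-05). It passed the test in none of the other 3 comparisons, with log2 fold changes between -0.044 and 0.048.

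Lower down the range, Adamts4, an aggrecanase, and Adamts7, which cuts cartilage oligomeric matrix protein, followed the common scheme. Adamts4 went from 2.36 ± 0.171 to 3.89 ± 0.217 RPKM in Foxk1 knockdown (SD, n = 3 and 3) and from 0.386 ± 0.0287 to 1.15 ± 0.198 in Foxk2 knockdown (n = 2 and 2). Adamts7 went from 1.04 ± 0.0217 to 0.270 ± 0.0202 RPKM in Foxk2 overexpression (n = 2 and 2), a log2 fold change of -0.998. Of the exon bases of Adamts7, 1.94% lie in exons of Tbc1d2b on the opposite strand, and the strand of counting is not stated. Tbc1d2b (4.42 to 12.5 RPKM) had the same 4 calls as Adamts7, and its part in the values was not tested.

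Adamts10, a partner of fibrillin, and Adamts15, a versicanase, were lower in both overexpressions and higher in Foxk2 knockdown, without a call in Foxk1 knockdown. Adamts10 had 1.84 ± 0.0709 against 3.15 ± 0.0848 RPKM in Foxk2 overexpression and 5.36 ± 0.0758 against 2.67 ± 0.421 in Foxk2 knockdown (SD, n = 2 and 2). In Foxk1 knockdown its libraries overlapped the controls (5.93 ± 0.337 against 6.08 ± 0.780 RPKM). Adamts15 had 1.62 ± 0.0333 against 3.43 ± 0.188 RPKM in labelled Foxk1 overexpression (SD, n = 3 and 3). With quantile normalization it was called lower in Foxk1 knockdown (-0.23, adjusted p = 0.0133). Its rise in Foxk2 knockdown was small, 0.27 ± 0.074 (SE, adjusted p = 0.0108), and lost its call without control replicate 2 (adjusted p = 0.0599) or knockdown replicate 1 (adjusted p = 0.0692). Adamts6 was lower in labelled Foxk1 overexpression (0.335 ± 0.0649 against 0.877 ± 0.138 RPKM, n = 3 and 3; adjusted p = 4.51e-05). In Foxk1 knockdown its libraries (2.75, 2.81 and 2.002 RPKM) overlapped the controls (1.87, 2.09 and 1.92), and its adjusted p of 0.0482 rose to between 0.0564 and 0.186 when any of 5 of the 6 libraries was left out.

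Adamts9, a versicanase, ran against the other ADAMTS genes in part. It measured 1.68, 1.61 and 1.51 RPKM in controls and 1.16, 1.31 and 1.17 in the libraries labelled Foxk1 overexpression, and 3.68, 3.86 and 3.56 in controls and 2.99, 3.30 and 3.04 with Foxk1 knockdown. Both manipulations of Foxk1 lay below their controls without overlap, at -0.29 ± 0.052 (SE, adjusted p = 0.000262) and -0.22 ± 0.052 (SE, adjusted p = 0.00394). In Foxk2 overexpression it measured 2.37 and 2.35 against 2.01 and 2.097 RPKM, 0.17 ± 0.064 (SE, adjusted p = 0.0466), a call that was lost when any 1 of these 4 libraries was left out (adjusted p 0.0802 to 0.201). In Foxk2 knockdown it measured 2.68 and 2.70 against 2.28 and 2.44 RPKM and was not called. Of its exon bases, 11.99% lie in exons of A730049H05Rik and Gm15737 on the opposite strand, which had at most 1.10 RPKM. Gm15737 was lower in both Foxk1 comparisons too, and its part in the Adamts9 values was not tested.

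The ADAMTS-like genes, whose products bind fibrillin microfibrils and lack a protease domain, were lower in both overexpressions and higher in both knockdowns. Adamtsl4 (chromosome 3, 95676201 to 95687917) measured 7.90, 7.01 and 8.79 RPKM in controls and 2.27, 2.599 and 2.38 in the libraries labelled Foxk1 overexpression, and 6.12, 4.91 and 4.47 in controls and 8.08, 7.53 and 8.43 with Foxk1 knockdown. For Foxk2, Adamtsl4 measured 9.96 and 9.22 RPKM in controls and 2.56 and 2.63 with overexpression, and 6.18 and 6.18 in controls and 15.4 and 14.9 with knockdown. The groups compared were apart in every case. Adamtsl4 log2 fold changes were -1.52 ± 0.091 (SE, adjusted p = 2.03e-09) and 0.60 ± 0.091 (SE, adjusted p = 9.54e-05) for Foxk1, and -1.71 ± 0.11 (SE, adjusted p = 7.49e-09) and 1.23 ± 0.11 (SE, adjusted p = 5.43e-07) for Foxk2. Adamtsl5 rose from 1.504 ± 0.0929 to 3.71 ± 0.130 RPKM in Foxk2 knockdown (SD, n = 2 and 2). In labelled Foxk1 overexpression it was -0.20 ± 0.075 (SE, adjusted p = 0.0406), a call lost without control replicate 1 or 3 or overexpression replicate 1 (adjusted p 0.0996 to 0.175). The call was also lost with no filter, quantile normalization, both models of fewer groups, voom on recovered reads and a replicate block (adjusted p 0.0609 to 0.226).

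All 4 TIMPs were lower in labelled Foxk1 overexpression, against 23.8% of all genes tested, but their calls differed in the other comparisons. Timp1, a secreted inhibitor (chromosome X, 20870166 to 20874735), measured 11.9, 9.16 and 12.1 RPKM in controls and 7.66, 7.16 and 5.65 in the libraries so labelled, and 12.8, 12.7 and 10.8 in controls and 22.97, 22.5 and 22.9 with Foxk1 knockdown. For Foxk2, Timp1 measured 4.80 and 5.02 RPKM in controls and 3.79 and 3.91 with overexpression, and 3.60 and 4.602 in controls and 6.10 and 7.11 with knockdown. No groups compared overlapped. Timp1 log2 fold changes were -0.66 ± 0.12 (SE, adjusted p = 0.000244) and 0.89 ± 0.12 (SE, adjusted p = 2.15e-05) for Foxk1 and 0.63 ± 0.14 (SE, adjusted p = 0.00267) for Foxk2 knockdown, while -0.31 ± 0.14 (SE, adjusted p = 0.0892) in Foxk2 overexpression did not pass. Fitted on the 2 groups alone, Timp1 passed in Foxk2 overexpression (adjusted p = 0.0267) and missed in Foxk2 knockdown (adjusted p = 0.0763).

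Timp4, an inhibitor known for its expression in fat and heart (chromosome 6, 115241892 to 115252205), fell in both manipulations of Foxk1. It measured 5.62, 5.87 and 5.18 RPKM in controls and 3.21, 3.41 and 3.80 in labelled Foxk1 overexpression, and 3.96, 3.97 and 3.86 in controls and 2.72, 2.76 and 2.19 with Foxk1 knockdown. It measured 2.18 and 2.42 RPKM in controls and 1.23 and 1.59 with Foxk2 overexpression, and 2.66 and 2.71 in controls and 2.67 and 2.74 with Foxk2 knockdown. Groups were apart in the first 3 comparisons and overlapped in Foxk2 knockdown. Timp4 log2 fold changes were -0.61 ± 0.082 (SE, adjusted p = 1.72e-05), -0.54 ± 0.082 (SE, adjusted p = 9.35e-05) and -0.56 ± 0.10 (SE, adjusted p = 0.000296). The last of these missed the threshold when fitted on the 2 groups alone (adjusted p = 0.0599). Timp4 lies within Syn2, with 1.53% of its exon bases in Syn2 exons on the opposite strand, and Syn2 was lower in the same 3 comparisons, by at most 0.67 on the log2 scale.

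Timp3, the matrix-bound inhibitor that also acts on ADAMTS proteases, was called in both Foxk1 comparisons and in neither Foxk2 comparison, a difference that was not itself tested. It fell from 0.787 ± 0.212 to 0.291 ± 0.0231 RPKM in labelled Foxk1 overexpression and rose from 2.06 ± 0.382 to 3.77 ± 0.291 in Foxk1 knockdown (SD, n = 3 and 3; adjusted p = 0.000153 and 0.000112). In the 8 libraries of the Foxk2 set it lay between 0.159 and 0.325 RPKM, and it passed in Foxk2 overexpression when the Foxk2 groups were modelled alone (adjusted p = 0.0380). Of its exon bases, 21.3% lie in exons of Syn3 on the opposite strand, which had at most 1.11 RPKM and the same calls in the Foxk1 comparisons. The part of Syn3 reads in these values was not tested.

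Summed over the genes of each class, MMP levels ran from 109 to 589.8 RPKM per library and TIMP levels from 27.9 to 222.4. The ratio of the MMP sum to the TIMP sum was 2.25, 2.43 and 2.43 in the controls of labelled Foxk1 overexpression and 4.002, 4.35 and 4.49 in the libraries so labelled. It was 4.15, 3.79 and 3.86 in the controls of Foxk1 knockdown and 2.65, 2.65 and 2.55 with it. The ratio was thus higher where both sums were lower, and lower where both were higher. In the Foxk2 set the ratio was 2.63 and 2.63 in controls and 3.33 and 3.35 with overexpression, and 2.94 and 2.92 in controls and 2.72 and 2.52 with knockdown. These ratios are given as descriptions and were not tested. The controls of the Foxk1 pair themselves differed, so that the Foxk1 knockdown controls were near the libraries labelled Foxk1 overexpression. Mmp2 had the highest MMP mean over the 20 libraries but did not lead the MMP sum with overexpression. In labelled Foxk1 overexpression, Mmp11 (group mean 31.9 RPKM) and Mmp19 (23.1) were above Mmp2 (22.2). In Foxk2 overexpression, Mmp19 (33.9 RPKM) was above Mmp2 (23.4). The ratio of Mmp2 to Timp2, the genes of highest mean in their classes, ranged from 0.843 to 2.01 over the 20 libraries. It followed the ratio of the sums only in Foxk1 knockdown, at 1.423 to 1.567 against 1.759 to 2.012 in controls. In labelled Foxk1 overexpression it overlapped the controls (1.081 to 1.231 against 1.191 to 1.283). In the Foxk2 set it moved the other way. It was 0.8434 to 0.8715 with overexpression against 1.353 to 1.399, and 1.502 to 1.624 with knockdown against 1.268 to 1.295.

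**Figure D3:**
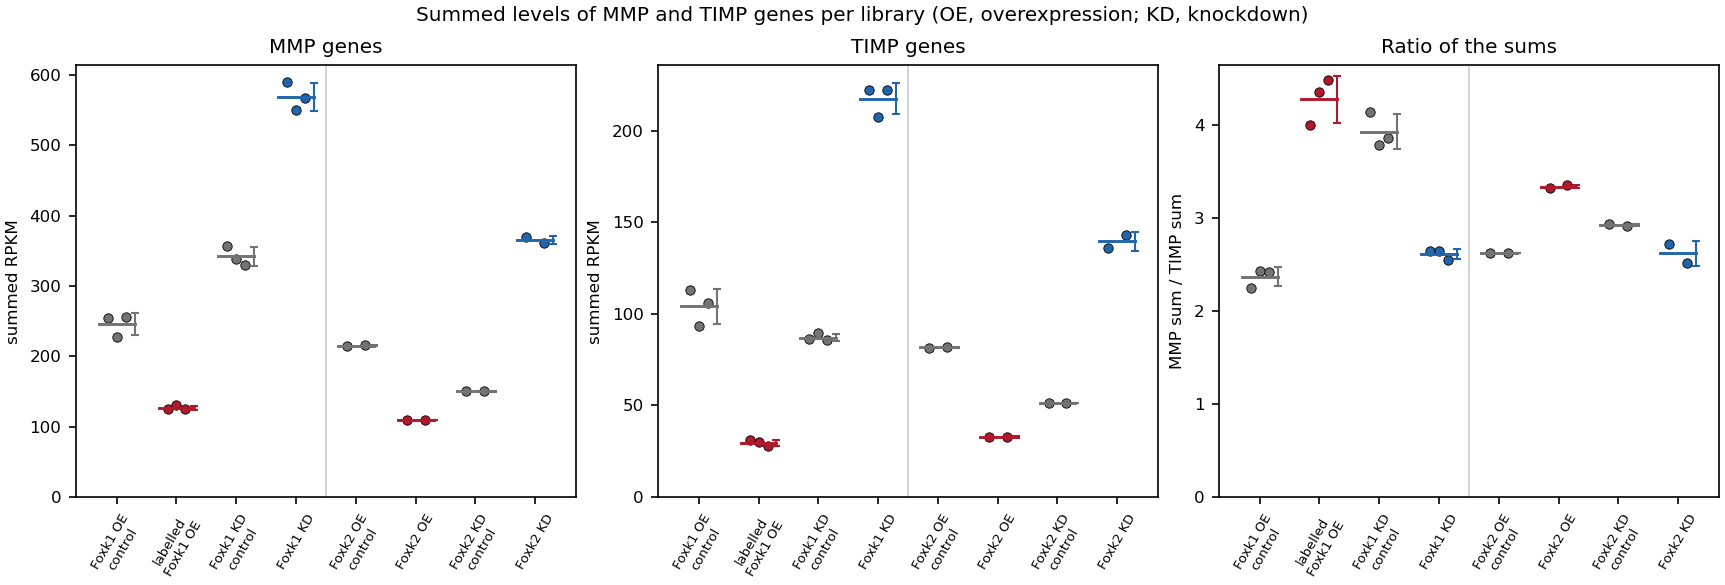
Summed RPKM of the MMP genes (left) and TIMP genes (middle) and the ratio of the sums (right) in each library, by group (OE, overexpression; KD, knockdown). Points are libraries, lines are means and bars are the SD. Both sums are lower in the overexpression groups and higher in the knockdown groups than in their controls, while the ratio moves the other way, from 2.25 to 2.43 in controls up to 4.002 to 4.49 in the libraries labelled Foxk1 overexpression.

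The MMPs Mmp11, Mmp28, Mmp19 and Mmp24 departed from the common scheme. Mmp11 (stromelysin 3, chromosome 10, 75923222 to 75936496), an MMP activated inside the cell by furin, measured 20.1, 19.99 and 22.3 RPKM in controls and 31.6, 31.997 and 32.1 in the libraries labelled Foxk1 overexpression, and 62.4, 59.6 and 62.6 in controls and 34.4, 31.8 and 43.8 with Foxk1 knockdown. For Foxk2, Mmp11 measured 21.4 and 16.99 RPKM in controls and 22.8 and 21.9 with overexpression, and 13.4 and 12.7 in controls and 21.9 and 22.98 with knockdown. No groups compared overlapped, but the sides differed: Mmp11 was lower with the Foxk1 shRNA and higher with the Foxk2 shRNA. Controls also differed, with the Foxk1 knockdown controls above all other libraries. Mmp11 log2 fold changes were 0.61 ± 0.094 (SE, adjusted p = 7.07e-05), -0.75 ± 0.094 (SE, adjusted p = 1.37e-05) and 0.76 ± 0.12 (SE, adjusted p = 9.89e-05), while 0.22 ± 0.12 (SE, adjusted p = 0.138) in Foxk2 overexpression was not called unless control replicate 1 was left out (0.38, adjusted p = 0.0258). Of the exon bases of Mmp11, 5.58% lie in exons of Chchd10 on the opposite strand. Chchd10 was higher in both overexpressions (log2 fold changes 2.18 and 1.73) and lower in both knockdowns (-1.36 and -0.54), and its part in the Mmp11 values was not tested.

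Mmp28 (epilysin, chromosome 11, 83440768 to 83463071) was opposite to the common scheme for Foxk1. It measured 13.9, 14.5 and 15.2 RPKM in controls and 19.7, 21.7 and 20.2 in labelled Foxk1 overexpression, and 14.2, 13.1 and 13.03 in controls and 9.71, 9.58 and 9.59 with Foxk1 knockdown, with no overlap. It measured 12.2 and 13.3 RPKM in controls and 12.6 and 13.2 with Foxk2 overexpression, which overlapped, and 13.9 and 13.7 in controls and 12.4 and 10.7 with Foxk2 knockdown. Mmp28 log2 fold changes were 0.48 ± 0.055 (SE, adjusted p = 3.16e-06), -0.46 ± 0.055 (SE, adjusted p = 8.21e-06) and -0.25 ± 0.068 (SE, adjusted p = 0.00829), and 0.017 ± 0.068 (SE, adjusted p = 0.905) in Foxk2 overexpression. The call in Foxk2 knockdown was lost without knockdown replicate 2 (-0.15, adjusted p = 0.148) and in the smaller models (adjusted p 0.0640 and 0.137). Mmp28 shares 12.03% of its exon bases with 1700020L24Rik on the opposite strand, which had the same calls as Mmp28 in both Foxk1 comparisons, and whose part in the values was not tested.

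Mmp19 (chromosome 10, 128790910 to 128800824), a secreted MMP of basement membranes, varied least of the abundant members, from 22.99 to 40.9 RPKM over all libraries. It measured 31.5, 29.9 and 28.95 RPKM in controls and 22.99, 23.3 and 23.01 in labelled Foxk1 overexpression, and 37.4, 36.1 and 37.97 in controls and 39.2, 40.9 and 37.96 with Foxk1 knockdown. It measured 29.95 and 31.6 RPKM in controls and 33.4 and 34.5 with Foxk2 overexpression, and 34.6 and 36.9 in controls and 39.7 and 37.8 with Foxk2 knockdown. The libraries labelled Foxk1 overexpression were the lowest of all 20, whereas those of Foxk2 overexpression lay just above their controls. The log2 fold changes in overexpression were -0.38 ± 0.039 (SE, adjusted p = 1.01e-06) and 0.14 ± 0.048 (SE, adjusted p = 0.0271). The latter lost its call without control replicate 1 (adjusted p = 0.204) or overexpression replicate 2 (adjusted p = 0.155). In the knockdowns it was not called (0.082 ± 0.039 (SE, adjusted p = 0.119) and 0.11 ± 0.048 (SE, adjusted p = 0.0792)), although quantile normalization gave a call in Foxk1 knockdown (adjusted p = 0.0416). Of its exon bases, 28.3% lie in exons of Tmem198b and Gm47093 on the opposite strand. Tmem198b (2.59 to 17.4 RPKM) was lower in both overexpressions and higher in both knockdowns, and its part was not tested.

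Mmp24 (MT5-MMP) was present in one set of libraries and nearly absent from the other. It measured 6.51, 5.61 and 5.80 RPKM in controls and 4.38, 4.14 and 4.11 in labelled Foxk1 overexpression, and 5.40, 5.52 and 5.66 in controls and 5.89, 7.003 and 5.58 with Foxk1 knockdown. In the 8 libraries of the Foxk2 set it had 0 to 6 reads, at most 0.0399 RPKM, although these libraries were deeper. Mmp24 fell in labelled Foxk1 overexpression, -0.46 ± 0.072 (SE, adjusted p = 8.27e-05), and was not called elsewhere. BC029722, which shares part of its exons on the opposite strand (13.6% of the exon bases of Mmp24), had 13.97 to 42.5 RPKM and was lower in labelled Foxk1 overexpression as well, a part that was not tested. Among controls alone, 11 of the 29 tested genes had ranges that did not overlap between the 6 Foxk1 and 4 Foxk2 libraries, and 10 of these 11 were higher in the Foxk1 set. Among all genes tested, 49.9% had such separate ranges and 28.4% were higher in the Foxk1 set, so separation of the sets was no more frequent in these genes than in general. Adamts15 was the one higher in the Foxk2 set.

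**Figure D4:**
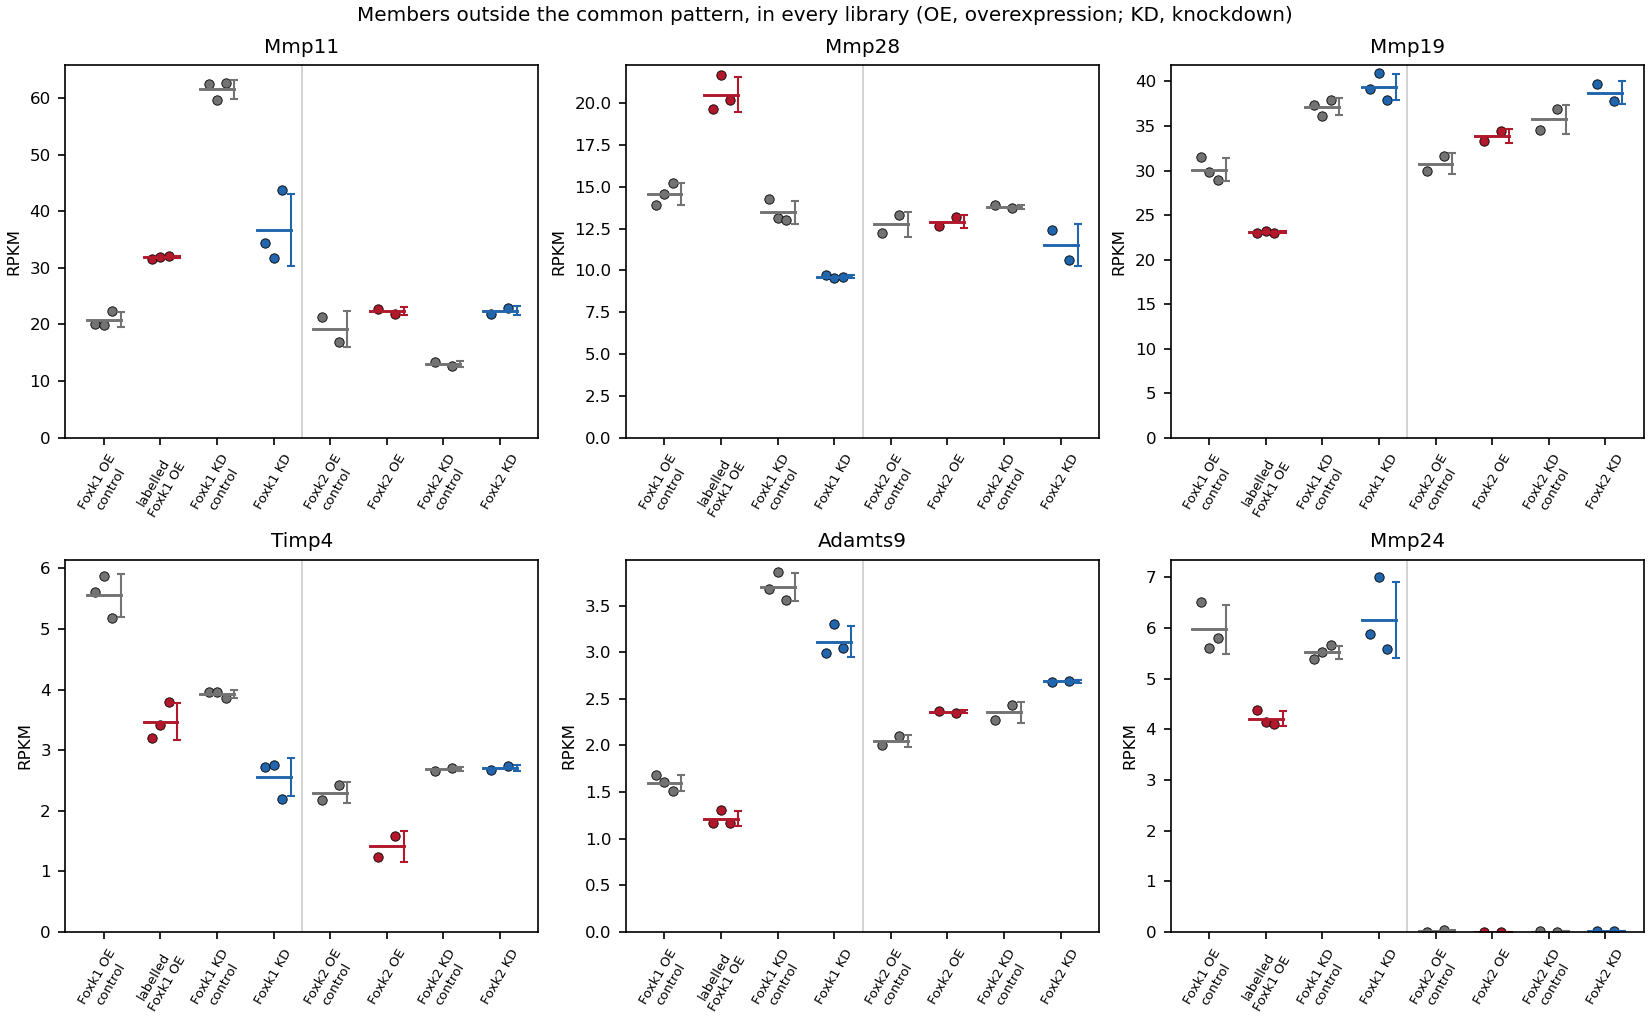
RPKM (vertical axes, from 0) of Mmp11, Mmp28, Mmp19, Timp4, Adamts9 and Mmp24 in each library, by group (OE, overexpression; KD, knockdown). Points are libraries, lines are group means and bars are the SD, with controls in grey. Mmp11 is lower with Foxk1 knockdown and higher with Foxk2 knockdown, and Mmp24 stays at or under 0.0399 RPKM in every Foxk2 library.

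The effects of the factors were compared for the 12 most abundant members by the difference of their log2 fold changes in the same model, adjusted over all genes tested. For overexpression, 5 of the 12 differed (Timp2, Mmp19, Adamts12, Adamts5 and Mmp28), against 25.1% of all genes tested. All but Mmp28 had the lower value in the libraries labelled Foxk1 overexpression, a direction called for 13.5% of all genes. For knockdown, 7 of the 12 differed (Mmp2, Adamts1, Mmp14, Mmp11, Adamts5, Mmp23 and Adamtsl4), each with the lower value for Foxk1. Among all genes tested 14.3% differed in knockdown, 7.63% with the lower value for Foxk1. The 12 members had means of 6.88 to 120.3 RPKM, whereas these shares include genes near the pseudocount, whose changes are understated. With the filter at a mean of 1 RPKM, 3897 of 12421 genes differed in overexpression and 2283 in knockdown, which are larger shares. The difference was not called for Mmp2 in overexpression (-0.15 ± 0.084, SE, adjusted p = 0.203) or for Timp2 in knockdown (-0.095 ± 0.089, adjusted p = 0.537). The residual protein was not measured, and in RNA the Foxk2 shRNA lowered its target from 12.9 to 3.27 RPKM and the Foxk1 shRNA from 8.32 to 3.25.

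**Figure D5:**
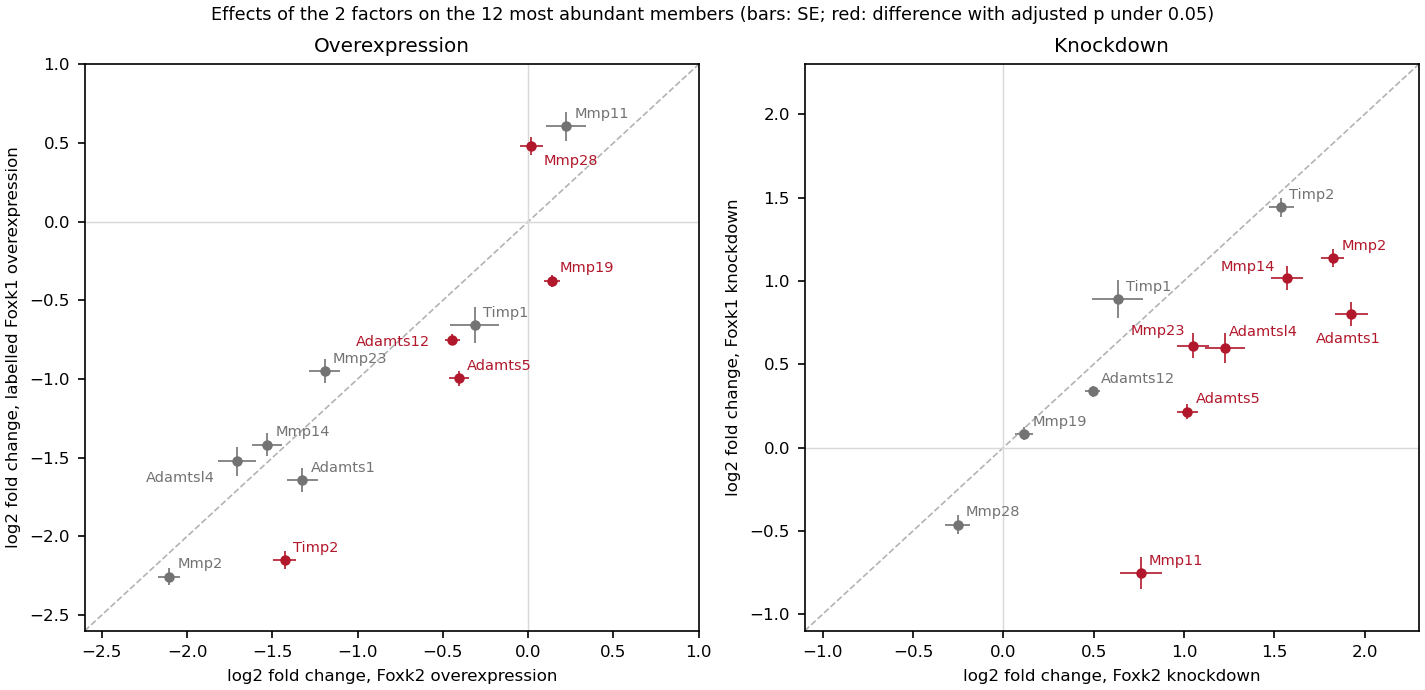
Log2 fold change of the 12 most abundant members for Foxk1 (vertical axis) against Foxk2 (horizontal axis), in overexpression (left) and knockdown (right); bars are the SE, the dashed line marks equal effects, and red marks a difference with an adjusted p under 0.05. In knockdown most points lie below the line, and Mmp11 lies farthest from it, at -0.75 for Foxk1 and 0.76 for Foxk2.

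Other genes of matrix proteolysis were read from lists of regulators, substrates and related proteases. Of the regulators, 10 of 19 passed the filter. Of these, 6 were lower and 2 higher in labelled Foxk1 overexpression, 6 higher and 2 lower in Foxk1 knockdown, 7 lower and 1 higher in Foxk2 overexpression, and 7 higher and 1 lower in Foxk2 knockdown. Among all genes tested, the shares lower and higher were 23.8% and 24.1% in labelled Foxk1 overexpression, and 22.0% and 23.0% in Foxk2 overexpression. The shares higher and lower were 20.4% and 15.5% in Foxk1 knockdown, and 18.0% and 15.7% in Foxk2 knockdown. Reck, a membrane-anchored inhibitor of MMPs, went from 4.24 to 0.918 RPKM in labelled Foxk1 overexpression (adjusted p = 3.72e-09) and from 2.14 to 6.03 in Foxk2 knockdown (adjusted p = 2.14e-06). Plat, tissue plasminogen activator, went from 3.83 to 12.8 RPKM in Foxk1 knockdown (adjusted p = 4.17e-09), and Lrp1, the receptor that clears several of these proteases, from 33.4 to 63.5 in Foxk2 knockdown (adjusted p = 8.31e-07). Bsg (basigin, an inducer of MMPs) went the other way, from 465 to 289 RPKM in Foxk1 knockdown (adjusted p = 6.22e-08). Furin, which activates Mmp11 and Mmp14, rose from 9.69 to 12.5 RPKM in Foxk2 knockdown (adjusted p = 7.06e-05). It was also higher in labelled Foxk1 overexpression, from 6.60 to 7.48 RPKM (adjusted p = 0.0034), and was not called in Foxk1 knockdown or Foxk2 overexpression.

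RNA of listed substrates of these proteases mostly changed in the same directions. For this list and the metzincins below, the shares of all genes tested were 23.8% lower and 24.1% higher in labelled Foxk1 overexpression. They were 22.0% lower and 23.0% higher in Foxk2 overexpression, 20.4% higher and 15.5% lower in Foxk1 knockdown, and 18.0% higher and 15.7% lower in Foxk2 knockdown. Of 20 matrix proteins listed, 14 passed the filter, and all 14 were lower in each overexpression comparison, with medians of -0.87 in both. In Foxk1 knockdown 12 were higher and 2 lower (median 0.68), namely Col18a1 and Comp, named after their values were seen, and in Foxk2 knockdown 12 were higher and none lower (median 1.18). Dcn (decorin) went from 174 to 25.8 RPKM in labelled Foxk1 overexpression (adjusted p = 2.32e-13), from 230.5 to 631 in Foxk1 knockdown (adjusted p = 9.72e-10), and from 42.4 to 185 in Foxk2 knockdown (adjusted p = 2.45e-10). Thbs1 (thrombospondin 1) went from 63.1 to 10.8 RPKM in Foxk2 overexpression (adjusted p = 2.97e-11). Fn1 (fibronectin) went from 31.5 to 100.3 RPKM in Foxk2 knockdown (adjusted p = 7.40e-10). Among 13 related metzincins of the ADAM, BMP1 and meprin families, 8 passed the filter and calls were mixed, with 1 higher and 1 lower in labelled Foxk1 overexpression, 3 and 0 in Foxk1 knockdown, 3 and 2 in Foxk2 overexpression, and 4 and 1 in Foxk2 knockdown. Bmp1, the procollagen C-proteinase, was lower in both overexpressions and higher in both knockdowns, for instance from 20.9 to 8.18 RPKM in Foxk2 overexpression (adjusted p = 1.195e-08). Adam12 was higher in both overexpressions, by 0.35 and 0.58 on the log2 scale.

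Fibroblast and preadipocyte markers moved in the same directions as most of the proteases. Of 8 listed, 7 passed the filter, and 6 were lower in each overexpression and 7 higher in each knockdown. Cd34 stayed under 0.5 RPKM everywhere. Their summed level was 242 to 293 RPKM in the controls of labelled Foxk1 overexpression and 85.0 to 87.2 in the libraries so labelled, and 342 to 364 in controls and 677 to 719 with Foxk1 knockdown. For Foxk2 it was 144 to 145 RPKM in controls and 69.7 to 70.5 with overexpression, and 100.4 to 101 in controls and 270 to 285 with knockdown. Pdgfra (platelet-derived growth factor receptor alpha) went from 30.7 to 4.36 RPKM in labelled Foxk1 overexpression and from 15.7 to 62.7 in Foxk2 knockdown. Adipocyte markers were not simply opposite: of 8, 5 were lower and 1 higher in labelled Foxk1 overexpression, 5 lower in Foxk1 knockdown, 7 lower in Foxk2 overexpression, and 2 lower and 1 higher in Foxk2 knockdown. Beside the counts of both marker lists, 23.8% of all genes tested were lower in labelled Foxk1 overexpression and 22.0% in Foxk2 overexpression (24.1% and 23.0% higher). In Foxk1 knockdown 20.4% were higher and 15.5% lower, and in Foxk2 knockdown 18.0% and 15.7%. Of the 6 macrophage markers, 4 passed the filter and summed over all 6 to between 3.75 and 7.997 RPKM. Of these 4, Cd14 was lower in both overexpressions and higher in both knockdowns, Csf1r was higher in labelled Foxk1 overexpression, Cd68 was higher in Foxk2 knockdown, and Lyz2 was not called. The part of these markers in the values of the proteases and inhibitors was not tested.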

How the data were processed

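RNA-seq values were deposited by the authors as RPKM in 1 matrix of 48440 genes and 20 libraries. Per the submitters' processing notes, HISAT2 2.1.0, Picard 1.141, featureCounts (Subread 1.5.1) and edgeR were used on mm10. The strand setting and annotation release are not given in the sources used here. Gene names and positions came from GENCODE M21, which matched 48058 IDs without their version. Multiplied by exon length, deposited RPKM of genes with matching versions gave whole reads to within 0.1 read, which supplied depths and the reads behind single values. Counting error was not added to the values.

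Tests used limma 3.58.1 in R 4.3.3 on log2(RPKM + 0.5), for the 15981 genes with 0.5 RPKM in at least 2 libraries. One model held all 8 group means (12 residual degrees of freedom, moderated with a mean trend). P-values were adjusted by Benjamini-Hochberg over all genes, two-sided, with calls under 0.05. Values set side by side are group means or library values, and SD is between libraries. The members and gene lists, and the tests, were chosen with earlier results of these data known. Values are named for every member with a mean of 0.5 RPKM. Full statistics are given for the 12 members of highest mean and for the 4 largest rises and 4 largest falls per comparison among called members with 1 RPKM or more in the higher group. Other lists name up to 4 called genes of smallest p. Promoter letters were searched in RefSeq windows, and BLAST+ 2.17.0 found no near copy of the 29 tested members at 99% identity over 100 bases on the same strand.

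The alternatives tried were no filter, a filter at a mean of 1 RPKM, pseudocounts of 0.1 and 1, median-ratio scaling, quantile normalization, models of fewer groups, voom on recovered reads, a replicate block, and leaving out each library.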

Additional observations from a re-analysis of the deposited data

Results flagged for a closer look

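The Foxk1 and Foxk2 effects on 12 of the 24 tested pairs of member and manipulation differed by the test of the difference itself, each as the Foxk1 minus the Foxk2 log2 fold change. These were 5 of 12 in overexpression, where 25.1% of all genes tested differed, and 7 of 12 in knockdown, where 14.3% did. Those shares include genes of low level, whereas the 12 were the most abundant members. In overexpression the difference was -0.72 for Timp2 (adjusted p = 3.99e-05), -0.59 for Adamts5 (adjusted p = 4.56e-05), -0.51 for Mmp19 (adjusted p = 3.10e-05) and -0.30 for Adamts12 (adjusted p = 0.00112). Mmp28 differed the other way, by 0.46 (adjusted p = 0.00125). In knockdown the difference was -1.51 for Mmp11 (adjusted p = 1.74e-05), -1.12 for Adamts1 (adjusted p = 2.84e-05) and -0.80 for Adamts5 (adjusted p = 9.37e-06). It was -0.69 for Mmp2 (adjusted p = 8.17e-05), -0.63 for Adamtsl4 (adjusted p = 0.00812), -0.55 for Mmp14 (adjusted p = 0.00447) and -0.44 for Mmp23 (adjusted p = 0.0198). Adamts5 was the member with a difference in both manipulations. The Foxk1 and Foxk2 libraries also differ in depth and in their controls, so factor and set cannot be told apart.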

How the results depend on the processing

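Among the 27 members, the number called stayed within 1.5 times the value reported under every alternative run, and no direction of a called member reversed. Across settings other than leaving out a library, 24 to 26 were called in labelled Foxk1 overexpression, 21 to 24 in Foxk1 knockdown, 17 to 21 in Foxk2 overexpression and 17 to 20 in Foxk2 knockdown. The lowest counts for Foxk1, 24 and 21, came from the filter at a mean of 1 RPKM. That filter left 25 of the members to test, without Mmp9 and Mmp13. With 1 library left out, the ranges were 25 to 26, 22 to 23, 16 to 18 and 18 to 19. Of the 12 top members, 5 to 7 overexpression differences and 6 to 7 knockdown differences were called, and 5 to 6 and 6 to 8 with 1 library left out. With a replicate block, 25, 23, 17 and 18 members were called in the same order, and 6 and 7 differences. Under it, Mmp19 and Adamts9 lost their calls in Foxk2 overexpression, Adamtsl5 in labelled Foxk1 overexpression and Adamts15 in Foxk2 knockdown. Same-numbered libraries showed little shared deviation: their deviations correlated between -0.086 and 0.033 across genes. Some libraries, but not all, correlated best with their own number. With 2 libraries in a group the deviations mirror each other, so for the Foxk2 set this check cannot decide on pairing. Whether the replicate numbers pair the samples is not settled by it. For single members, results were counted per value and setting, so the same value can recur. Across the settings, 26 such results lost and 10 gained their call, and 1036 were unchanged. With a library left out, 19 lost and 1 gained it, and 520 were unchanged. Adamtsl5 in labelled Foxk1 overexpression and Adamts6 in Foxk1 knockdown recurred most often among the losses. The cause was not tested. The reads behind Mmp13 ran from 2 to 152 per library.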

Other observations

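ADAMTS levels summed over the 19 proteases ran from 54.9 to 58.5 RPKM in the libraries labelled Foxk1 overexpression against 130.0 to 155.5 in their controls, and from 256 to 268 with Foxk1 knockdown against 161 to 177. With Foxk2 they ran from 71.5 to 73.2 RPKM in overexpression against 144 to 148 in controls, and from 246 to 269 in knockdown against 92.5 to 93.7. For these sums the groups compared did not overlap, and no test was made of them. The ratio of Mmp2 to Mmp14, the protease and its membrane activator, was 1.02 to 1.05 in the libraries labelled Foxk1 overexpression and 1.79 to 1.98 in their controls. In Foxk1 knockdown it was 1.64 to 1.82 against 1.55 to 1.67, and the groups overlapped. In the Foxk2 set it was 1.55 to 1.68 with overexpression against 2.35 to 2.43 in controls, and 2.56 to 2.66 with knockdown against 2.15 to 2.25.

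Mmp15, a membrane-type MMP, and Mmp27, in the chromosome 9 cluster, were tested although their means were under 0.5 RPKM. Mmp15 fell in labelled Foxk1 overexpression (0.0713 ± 0.0192 against 0.238 ± 0.0358 RPKM, SD, n = 3 and 3; adjusted p = 0.00444). Mmp27 rose in Foxk1 knockdown (0.872 ± 0.0774 against 0.234 ± 0.0416 RPKM, n = 3 and 3; adjusted p = 8.85e-05) and in Foxk2 knockdown (0.581 ± 0.0674 against 0.175 ± 0.0411 RPKM, n = 2 and 2; adjusted p = 0.00498). Mmp27 passed the filter through the knockdown libraries in which it was high, so its differences there were in part set by the filter. Mmp15 passed it through groups other than these.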
